A study of Mus musculus with 10 samples.

Results

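The SPARC family is a group of secreted matricellular proteins, which sit in the extracellular matrix and tune how cells adhere and signal rather than build the matrix. Its 8 mouse genes, Sparc, Sparcl1, Spock1, Spock2, Spock3, Smoc1, Smoc2 and Fstl1, were taken by symbol from the 53700 gene identifiers counted in each library. All 8 had more than 10 reads over the 10 libraries and were among the 19268 genes tested. The family was selected on the measured difference between the groups, known from an earlier look at these counts, so its members' values in that comparison are a description and give no support of their own.

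Each member carries a follistatin-like domain, and most pair it with an extracellular calcium-binding domain. SPARC binds collagens and weakens cell adhesion, and in mouse brain its transcript is known from microglia and from blood vessels. SPARCL1, also called hevin, is an astrocyte protein that bridges adhesion proteins across the synaptic cleft to promote excitatory synapses, and SPARC opposes that action. The SPOCK proteins, or testicans, are proteoglycans made largely by neurons. SMOC1 and SMOC2 restrain BMP signalling, SMOC1 being also a known component of amyloid plaques. FSTL1 binds ligands of the BMP and activin family.

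The libraries came from the cortex of 10 female mice aged 4 months, 5 labelled 5XFAD and 5 labelled 5XFAD;Neu cKO. All carry the 5XFAD transgenes, human genes with familial Alzheimer's disease mutations under mouse Thy1 sequence, so no library without the transgenes is among them. In the 5XFAD;Neu cKO mice, Camk2a-Cre, active in forebrain neurons and chiefly in excitatory ones, was combined with floxed Idol (gene symbol Mylip), the ubiquitin ligase that marks LDL receptor family members for degradation. The labels call the controls WT, which the study's text glosses once as wild type for Idol, without saying whether bulk libraries came from mice with unexcised floxed alleles or the Cre. The comparison asks what loss of neuronal Idol changes in the transcriptome of an amyloid-bearing cortex.

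The libraries held 4320504 to 7466192 reads on genes in the 5XFAD group and 5148499 to 7246659 in the 5XFAD;Neu cKO group. They were QuantSeq 3′ libraries, whose reads lie close to the poly(A) tail, so counts do not grow with the length of a transcript. Levels are given as CPM, counts scaled to a library of a fixed size with edgeR's TMM factors, and are compared between genes with no division by length. Mylip itself was not lower in the libraries labelled as its knockout. It was counted 45 to 108 times in 5XFAD libraries (11.2 ± 2.27 CPM, SD, n = 5) and 50 to 148 times in libraries labelled 5XFAD;Neu cKO (14.8 ± 4.90 CPM, n = 5), a log2 fold change of 0.39 ± 0.25 (SE; edgeR adjusted p = 0.777). Reads at a 3′ end check a deletion only if the deleted part includes that end, which the sources used here do not state, and cells other than neurons keep the gene. The study also measured Idol by qPCR in cortices of both genotypes, where it was lower in the knockout, and those measurements were not analysed here. The group names below are those of the labels.

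Sparc lies on the minus strand of chromosome 11 (ENSMUSG00000018593, GRCm39 chr11:55285317-55314067), and Fstl1 on the plus strand of chromosome 16 (ENSMUSG00000022816, GRCm39 chr16:37597105-37656876). No other annotated gene overlaps either of them. They are the 2 members whose groups did not overlap in CPM, as was found in 1.3% of all genes tested. Their promoter windows from RefSeq, 250 bases before to 50 after the annotated start, are therefore shown 5′ to 3′ with each CG in capitals. The windows were placed on GRCm39 by an exact match, at chr11:55310857-55311156 on the minus strand and chr16:37597167-37597466 on the plus strand.
Sparc: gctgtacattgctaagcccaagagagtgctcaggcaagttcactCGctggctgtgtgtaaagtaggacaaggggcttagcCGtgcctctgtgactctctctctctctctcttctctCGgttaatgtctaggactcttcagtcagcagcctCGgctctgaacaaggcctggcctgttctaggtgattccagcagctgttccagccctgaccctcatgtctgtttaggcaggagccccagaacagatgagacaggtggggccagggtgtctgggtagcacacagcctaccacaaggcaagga
Fstl1: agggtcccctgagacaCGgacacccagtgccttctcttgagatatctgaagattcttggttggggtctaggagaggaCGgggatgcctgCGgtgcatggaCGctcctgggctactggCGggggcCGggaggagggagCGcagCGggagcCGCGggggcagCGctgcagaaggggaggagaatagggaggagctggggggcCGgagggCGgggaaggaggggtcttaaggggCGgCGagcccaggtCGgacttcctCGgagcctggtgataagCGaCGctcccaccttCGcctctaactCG
The windows differ in CG content. The Sparc window holds 4 CG, and 38.0% of 32851 mouse promoter windows of this length hold as few or fewer. The Fstl1 window holds 21 CG, and 24.8% hold as many or more, against a median of 7. The RefSeq start of Sparc is the start of its canonical GENCODE transcript. Of its 35 annotated transcripts, 1 starts within 50 bases of that place. The RefSeq start of Fstl1 lies 312 bases inside its canonical transcript, within 50 bases of the start of 8 of its 24 annotated transcripts. Windows were also found for Spock1, with 29 CG, for Spock2, with 10, and for Spock3, with 4 and 7 at its 2 starts. These counts describe the letters and were not related to expression.

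Sparcl1 was by far the most abundant member, and the Smoc genes were the rarest. Sparcl1 made up 71.0% to 72.8% of the family's summed CPM in the 5XFAD group and 69.0% to 74.3% in the 5XFAD;Neu cKO group. Ordered by mean log2 CPM over the 10 libraries, the members ran from Sparcl1 through Spock2, Spock1, Sparc, Spock3, Fstl1 and Smoc2 to Smoc1. The order was tested between neighbours by exact two-sided sign-flip permutation tests of the difference within each library, adjusted over 7 pairs. The smallest p that 10 libraries can give is 0.00195.

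Sparcl1 exceeded Spock2 by 3.05 ± 0.19 on the log2 scale (SD, higher in 10 of 10 libraries, exact permutation adjusted p = 0.00273). Spock2 exceeded Spock1 by a small margin, 0.30 ± 0.21 (9 of 10 libraries, exact permutation adjusted p = 0.00456). Spock1 and Sparc were not separated, with a difference of 0.04 ± 0.33 (7 of 10 libraries, exact permutation adjusted p = 0.715). Below Sparc, each step was found in 10 of 10 libraries with an exact permutation adjusted p of 0.00273. The steps were 1.19 ± 0.44 from Sparc to Spock3, 0.72 ± 0.21 from Spock3 to Fstl1, 2.10 ± 0.55 from Fstl1 to Smoc2 and 1.31 ± 0.72 from Smoc2 to Smoc1. Sparc and Spock1 stood in opposite order in the groups, at 257 and 226 CPM in 5XFAD and at 171 and 204 CPM in 5XFAD;Neu cKO libraries, so their places in the pooled order mix those of the groups.

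**Figure D1:**
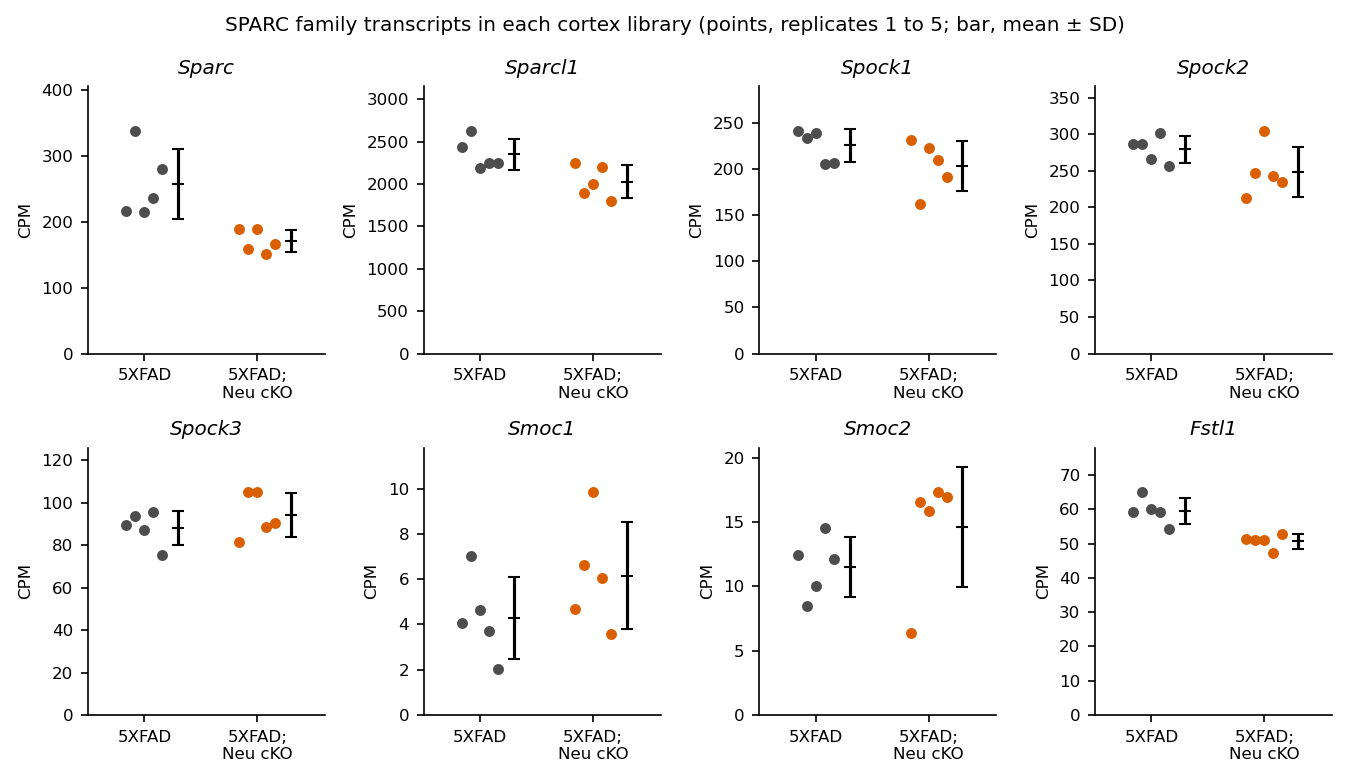
CPM (y axis, linear, from 0) of each SPARC family transcript in every library, 1 panel per gene, with 5XFAD in grey and 5XFAD;Neu cKO in orange, points in replicate order 1 to 5 and bars giving the mean ± SD of 5 libraries. The Sparc points of the groups do not overlap (214 to 339 against 151 to 189 CPM), nor do those of Fstl1 (54.3 to 65.0 against 47.1 to 52.9 CPM), and 1 Smoc2 point at 6.36 CPM lies under all others.

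Sparc stood lower in every library labelled 5XFAD;Neu cKO than in any labelled 5XFAD. In 5XFAD replicates 1 to 5, Sparc stood at 217, 339, 214, 237 and 281 CPM, from 1119, 1443, 1577, 1271 and 1250 reads. In 5XFAD;Neu cKO replicates 1 to 5, it stood at 189, 159, 189, 151 and 167 CPM, from 1009, 864, 1436, 898 and 1163 reads. The nearest libraries of the groups stood at 189 and 214 CPM, and 5XFAD replicate 2 stood highest. The means were 257 ± 52.6 and 171 ± 17.1 CPM (SD, n = 5 each), with a coefficient of variation of 20.4% and 10.03% where counting error alone gives 2.74% and 3.05%.

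In the fit across all genes, Sparc had a log2 fold change of -0.59 ± 0.10 (SE; edgeR adjusted p = 0.000384), at rank 9 of 19268 genes by unadjusted p. It was the 1 member of 8 past the threshold of 0.05, where 0.218% of all genes tested were past it in either direction and 0.161% lower and 0.0571% higher. At an unadjusted p under 0.05, Sparc and Sparcl1 passed, 2 of 8, beside 7.95% of all genes. Because this contrast was known when the family was proposed, nothing is read from these counts. DESeq2 gave Sparc an adjusted p of 0.000120, with 1.25% of the 5820 genes that received an adjusted p called. Leaving out each library in turn kept the log2 fold change of Sparc between -0.65 and -0.47 (edgeR adjusted p from 0.000108 to 0.00461), the smallest change being without 5XFAD replicate 2.

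Fstl1, the follistatin-like member, was the other gene whose groups did not overlap. It was at 59.1, 65.0, 60.04, 59.1 and 54.3 CPM in 5XFAD replicates 1 to 5 and at 51.2, 50.9, 50.9, 47.1 and 52.9 CPM in 5XFAD;Neu cKO replicates 1 to 5. The gap was narrow, 54.3 against 52.9 CPM, and the fit did not call it, with a log2 fold change of -0.23 ± 0.12 (SE; edgeR adjusted p = 0.647). Groups that do not overlap were found in 1.3% of all genes tested, 0.721% in the lower direction. The spread of Fstl1, a coefficient of variation of 6.38% and 4.18%, was close to that of counting error, 5.62% and 5.61%.

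Sparcl1, the synapse-promoting counterpart of Sparc, was at 2437, 2631, 2186, 2249 and 2252 CPM in 5XFAD replicates 1 to 5. In 5XFAD;Neu cKO replicates 1 to 5, it was at 2246, 1899, 1999.95, 2200 and 1806 CPM. The groups overlapped, since 5XFAD;Neu cKO replicates 1 and 4 lay above the lowest 5XFAD library. The log2 fold change was -0.21 ± 0.07 (SE) and did not pass in edgeR (adjusted p = 0.259) or DESeq2 (adjusted p = 0.0902). Sparcl1 (ENSMUSG00000029309, GRCm39 chr5:104226288-104262065, minus strand) is overlapped at its 3′ end by Gm73109, an annotated long noncoding RNA of the opposite strand, and the strand setting of the counting is not given in the sources used here.

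The testicans did not pass in either direction. Spock1 (ENSMUSG00000056222, chr13:57569008-58056146) spanned 206 to 242 CPM in 5XFAD and 162 to 231 CPM in 5XFAD;Neu cKO libraries, with a log2 fold change of -0.15 ± 0.09 (SE; edgeR adjusted p = 0.748). Spock2 (ENSMUSG00000058297, chr10:59942041-59971357) spanned 256 to 301 and 213 to 305 CPM, with -0.17 ± 0.09 (edgeR adjusted p = 0.655). Its highest and its lowest library were both 5XFAD;Neu cKO ones. Spock3 (ENSMUSG00000054162, chr8:63403773-63811773) spanned 75.2 to 95.4 and 81.7 to 105 CPM, with 0.09 ± 0.11 (edgeR adjusted p = 0.922), so the 3 testicans did not share a sign.

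The Smoc genes had the fewest reads and the widest errors. Smoc1 (ENSMUSG00000021136, chr12:81073554-81233188) had 21, 30, 34, 20 and 9 reads in 5XFAD replicates 1 to 5, and 25, 36, 75, 36 and 25 reads in the 5XFAD;Neu cKO replicates. Its log2 fold change was 0.52 ± 0.39 (SE; edgeR adjusted p = 0.843), and its libraries varied by 42.3% and 38.6% (coefficient of variation), where counting error alone gives 20.9% and 15.9%. Smoc2 (ENSMUSG00000023886, chr17:14499735-14625074) had 64, 36, 74, 78 and 54 reads in 5XFAD replicates 1 to 5, or 8.45 to 14.5 CPM. In 5XFAD;Neu cKO replicates 1 to 5, it had 34, 90, 121, 103 and 118 reads, or 6.36, 16.6, 15.9, 17.3 and 17.0 CPM. All but replicate 1 of the latter stood above every 5XFAD library, and the log2 fold change was 0.35 ± 0.25 (SE; edgeR adjusted p = 0.829). DESeq2 gave neither Smoc gene an adjusted p. The 3′ end of Smoc2 is overlapped by 4930474M22Rik, an annotated long noncoding RNA of the opposite strand, which had 0 reads over the 10 libraries.

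**Figure D2:**
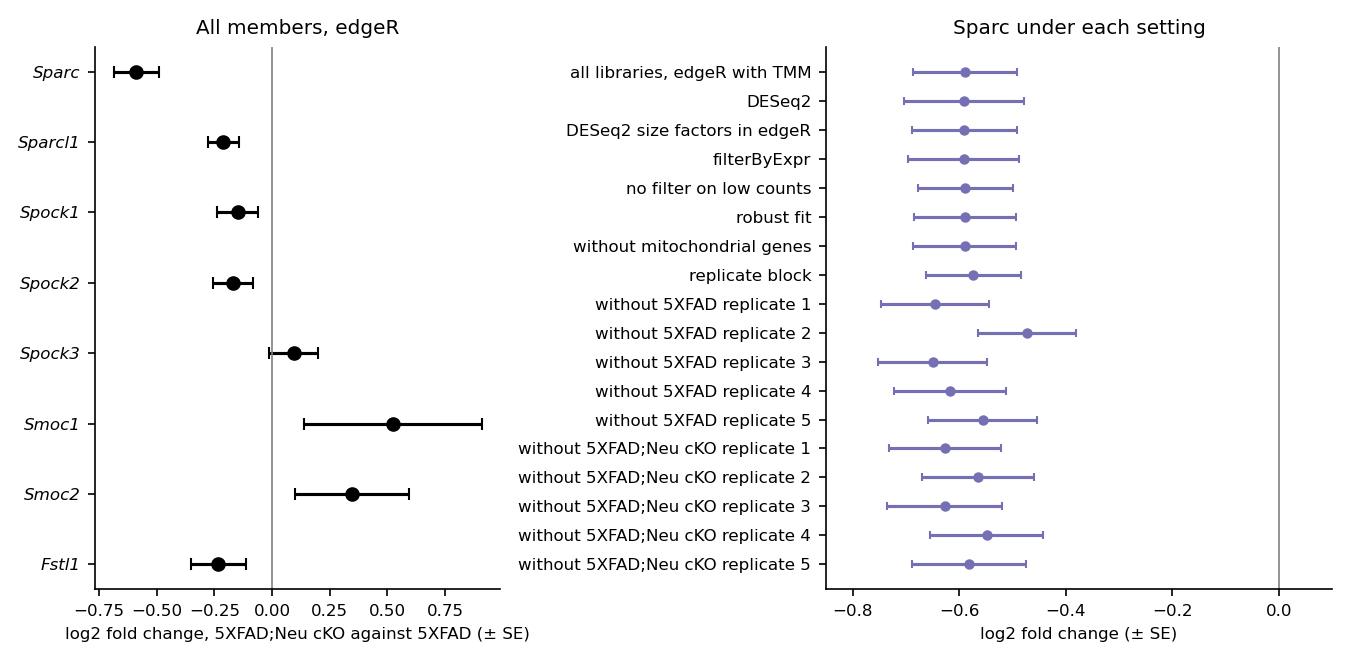
Log2 fold change of 5XFAD;Neu cKO against 5XFAD (x axis) with its SE, for the 8 members in edgeR (left) and for Sparc under each alternative setting and with each library left out (right). Sparc has the lowest value of the members, -0.59, the Smoc genes have the widest errors, and the Sparc values on the right run from -0.65 to -0.47, all below 0.

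Across the family, 5 of 8 members were lower and 3 were higher in 5XFAD;Neu cKO libraries, with a median log2 fold change of -0.16. Over all genes tested, 50.1% were lower, with a median of -0.00056. Of the ratios of Sparc to each other member, that to Spock3 was the 1 without overlap, at 2.43 to 3.73 Sparc reads per Spock3 read in 5XFAD and 1.52 to 2.31 in 5XFAD;Neu cKO libraries. The ratio of Sparc to Sparcl1, the pair with opposed actions at synapses, was 0.0890 to 0.129 in 5XFAD and 0.0687 to 0.0943 in 5XFAD;Neu cKO libraries. That ratio overlapped between the groups, with a log2 difference of -0.36 ± 0.13 (SE). As shares of the family's CPM, Sparc took 6.48% to 9.24% and 5.10% to 6.52%.

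Markers of microglia, one of the cell types known to express Sparc, stood lower in the 5XFAD;Neu cKO group. All 17 microglia markers tested had a negative log2 fold change, with a median of -0.67, and 7 were past the threshold in edgeR. Over all genes tested, 50.1% were lower, and 0.161% were lower and past the threshold. The marker lists were chosen with earlier results of these data known, so their counts are a description. The 7 are named next. They were Cx3cr1, Csf1r, C1qb, C1qc, Ctss, Laptm5 and Tyrobp, with log2 fold changes from -1.21 for C1qb to -0.51 for Cx3cr1. C1qb, Ctss and Tyrobp were past it in 10 of 10 fits with a library left out, Csf1r in 9, C1qc in 8, Cx3cr1 in 6 and Laptm5 in 3. The summed level of the 17 markers was 571 to 822 CPM in 5XFAD and 382 to 477 CPM in 5XFAD;Neu cKO libraries, which did not overlap. In bulk tissue, fewer cells of a type and less RNA per cell cannot be told apart. The study also reported a smaller cortical area stained for IBA1, a microglial marker, and unaltered proportions of major cell types among nuclei. Those measurements were not analysed here. The study had already named Csf1r, Ctss and Tyrobp as downregulated in its own bulk RNA-seq.

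Set against the microglia sum, Sparc overlapped between the groups. It stood at 0.266 to 0.450 CPM per CPM of the summed markers in 5XFAD (median 0.375) and at 0.332 to 0.438 in 5XFAD;Neu cKO libraries (median 0.401). The log2 difference of this ratio was 0.08 ± 0.16 (SE). Sparc and the sum were each lower without overlap, so the ratio carries both differences over. It is not a separate result about microglia. Within groups, Sparc and the microglia sum had a Pearson's r of 0.28 after the group means were removed (exact within-group permutation, p = 0.543, adjusted p = 0.834 over 72 pairs, n = 10 libraries). Spearman's rho, from ranks over all 10 libraries with the group means then removed, was 0.25 (permutation p = 0.544). Without the 2 libraries whose Sparc level, with the group means removed, lay farthest from the median, r was -0.24. The part of microglia in the Sparc difference was not tested.

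Markers of blood vessel cells, another known source, overlapped between the groups in their summed level. Of 16 endothelial markers, 6 were lower and 10 higher, none past the threshold in edgeR (1 at an unadjusted p under 0.05, Abcb1a, a drug efflux pump of the blood-brain barrier, log2 fold change -0.62, adjusted p = 0.0651). With DESeq2, Abcb1a was past it (adjusted p = 0.0153). The endothelial sum spanned 413 to 510 CPM in 5XFAD and 430 to 464 CPM in 5XFAD;Neu cKO libraries. Sparc per endothelial sum was 0.460 to 0.679 and 0.351 to 0.429, lower without overlap, with a log2 difference of -0.55 ± 0.12 (SE). The same was found against the sums of mural cells, astrocytes, oligodendrocyte precursors and inhibitory neurons, with log2 differences from -0.67 to -0.50. Against the sums of fibroblasts (-0.63 ± 0.33, SE), oligodendrocytes (-0.31 ± 0.17) and excitatory neurons (-0.52 ± 0.14), the groups overlapped. Because Sparc itself was lower without overlap, these ratios carry that difference over and are not separate results about the cell types.

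**Figure D3:**
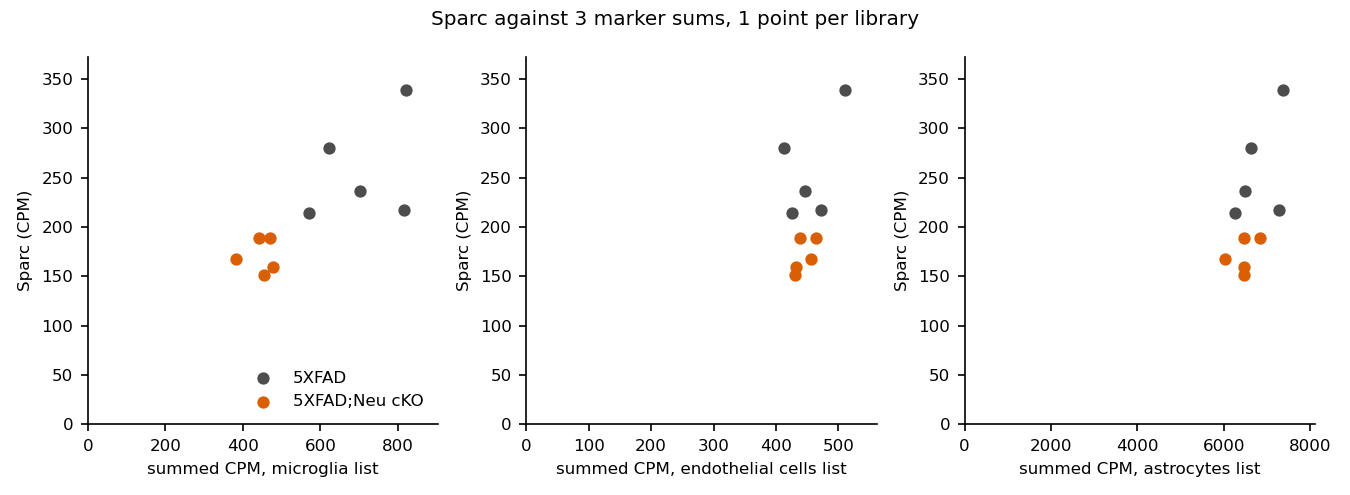
Sparc in CPM (y axis, from 0) against the summed CPM of the microglia, endothelial and astrocyte marker lists (x axes, from 0), 1 point per library, 5XFAD in grey and 5XFAD;Neu cKO in orange. The groups part along both axes in the microglia panel (571 to 822 against 382 to 477 CPM), and along the Sparc axis alone in the endothelial panel (413 to 510 against 430 to 464 CPM).

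Of the other cell type lists, those of astrocytes and oligodendrocytes leaned lower, where 50.1% of all genes tested were lower. Among 17 astrocyte markers, 16 were lower (median -0.13) and Gfap, the intermediate filament of reactive astrocytes, was past the threshold (log2 fold change -0.88, edgeR adjusted p = 0.00202). The astrocyte sum, 6267 to 7376 CPM in 5XFAD and 6042 to 6851 CPM in 5XFAD;Neu cKO libraries, overlapped. All 12 oligodendrocyte markers were lower (median -0.34), and Mal, a myelin membrane protein, was past it (log2 fold change -0.48, edgeR adjusted p = 0.0427), though in only 2 of 10 fits with a library left out. The remaining medians were -0.05 for mural cells (6 of 11 lower), 0.17 for fibroblasts (3 of 8) and -0.0045 for oligodendrocyte precursors (4 of 8). For excitatory neurons the median was 0.02 (5 of 11 lower) and for inhibitory neurons -0.08 (7 of 11), where that of all genes was -0.00056. None of these remaining lists had a gene past the threshold in edgeR. The smallest unadjusted p in each of these lists belonged to Vtn (log2 fold change 0.20), Slc22a6 (-1.14), Matn4 (-0.23), Neurod2 (0.32) and Lhx6 (1.04), in the same order. Ndufa4l2, Lum and Igf2 were at 0 in 1, 2 and 2 libraries, and every other marker tested was counted in all 10.

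The known partners of the family, its matrix ligands, receptors, proteases and signalling targets, had no member past the threshold in edgeR. Among 12 collagens, ligands of SPARC, 4 were lower and 8 higher (median 0.12), and the smallest unadjusted p was that of Col18a1 (log2 fold change -1.15 ± 0.63, adjusted p = 0.698). Col4a1 and Col4a2, the basement membrane collagens, were at 0.11 and -0.01. Of 4 cell-surface partners of SPARC, Itgb1, a subunit of many matrix receptors, was lower (-0.32 ± 0.12, edgeR adjusted p = 0.445), and the other 3, Stab1, Vcam1 and Itgb3, stood between 0.07 and 0.11.

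Among 11 other matricellular proteins tested, such as thrombospondins and tenascins, 2 were lower and 9 higher (median 0.27), and Tnr, the tenascin of perineuronal nets, had the smallest unadjusted p (-0.20 ± 0.09, edgeR adjusted p = 0.549). The 11 synapse-organising partners of hevin, among them neuroligins and glypicans, were all lower by small amounts (median -0.09). The smallest unadjusted p among them was that of Gpc5, a glypican (-0.38 ± 0.17, edgeR adjusted p = 0.534), while Nlgn1 was at -0.11. Of 15 matrix proteases and inhibitors, 9 were lower and 6 higher (median -0.04), with Timp3, a metalloprotease inhibitor held in the matrix, at -0.26 ± 0.10 (edgeR adjusted p = 0.436). Of 20 genes of BMP and activin signalling, 11 were lower and 9 higher (median -0.02), with Fstl5, a relative of Fstl1, at -0.30 ± 0.17 (edgeR adjusted p = 0.698).

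**Figure D4:**
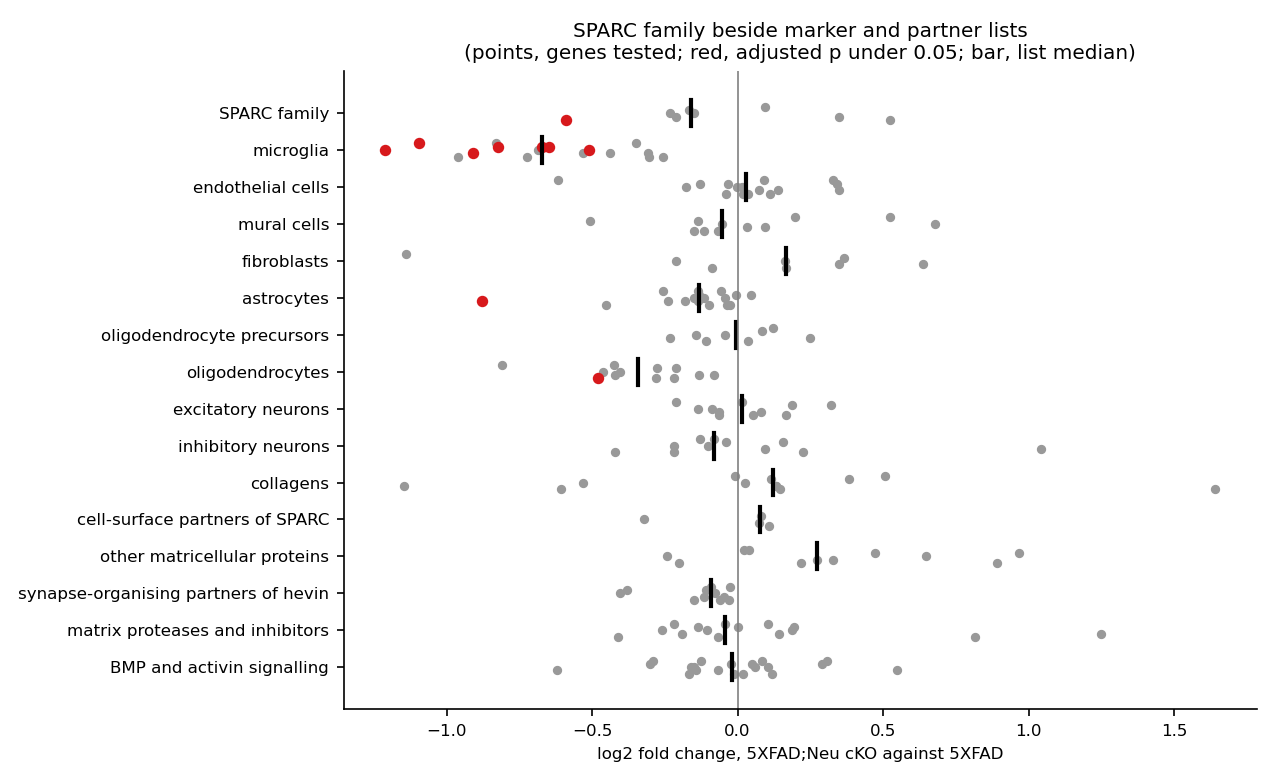
Log2 fold change of 5XFAD;Neu cKO against 5XFAD (x axis) for each gene of the SPARC family, of 9 cell type marker lists and of 6 partner lists (rows), with genes past the edgeR threshold of 0.05 in red and a black bar at the list median. The red points are Sparc, 7 microglia markers, Gfap and Mal, and the microglia median of -0.67 lies farthest from 0.

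Within groups, 1 pair of members was past the threshold, which does not show that the others vary apart, given 10 libraries. Of 28 pairs of members, correlated over 10 libraries after the group means were removed, r ran from -0.58 to 0.82 with a median of 0.17. Positive values were found in 19 pairs, and 3 pairs had an unadjusted p under 0.05. Among these, Spock3 with Smoc1 (r = 0.75) and Spock2 with Smoc1 (r = 0.67) did not pass (exact permutation adjusted p = 0.323 for each). The 1 pair past the threshold was Spock2 with Spock3, 2 testicans (r = 0.82, exact within-group permutation p = 0.00146, adjusted p = 0.0408, and r = 0.83 without the 2 farthest libraries). By Spearman's rho, the same pair stood at 0.82 with an exact permutation adjusted p of 0.0622, and no pair passed when CPM was taken from library totals or in 8 of 10 fits with a library left out. Sparc passed with no other member, its r being 0.42 with Sparcl1, 0.38 with Fstl1 and -0.47 with Smoc2 (exact permutation adjusted p from 0.526 to 0.717).

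Of 72 pairs of a member and a marker sum, Sparcl1 with the astrocyte sum was the 1 past the threshold. Its r was 0.85 (exact within-group permutation p = 0.000347, adjusted p = 0.0250) and its rho 0.96 (exact permutation adjusted p = 0.0200), with r = 0.71 without the 2 farthest libraries. With 1 library left out, no pair passed in 8 of 10 fits, and none passed with CPM from library totals. Sparcl1 also had r of 0.78 with excitatory neuron markers and 0.72 with microglia markers, which did not pass (exact permutation adjusted p = 0.392 for each). For Fstl1, the highest value was 0.79 with endothelial markers (exact permutation adjusted p = 0.412), and 0.34 without the 2 farthest libraries. For Sparc, the farthest from 0 was -0.69 with fibroblast markers (exact permutation adjusted p = 0.765), and -0.53 without the 2 farthest libraries.

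**Figure D5:**
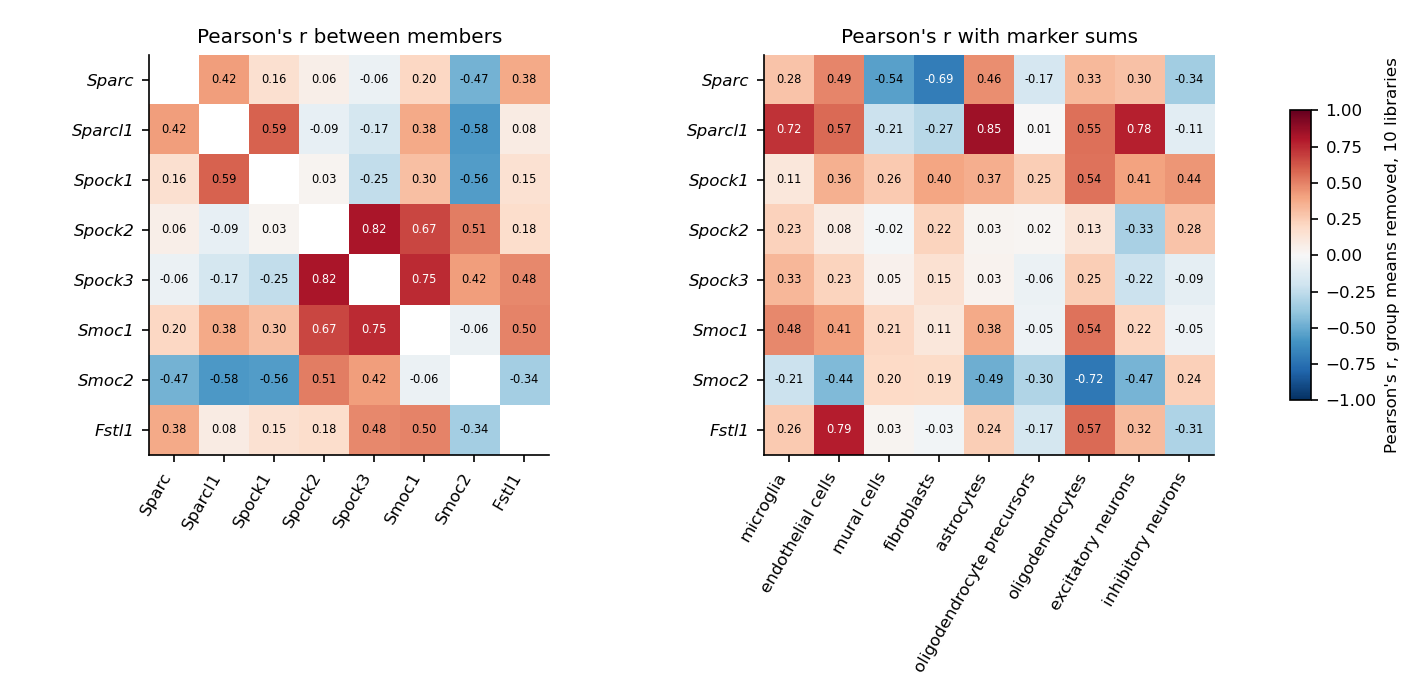
Pearson's r over 10 libraries after removing each group's mean, between the 8 members (left) and between each member (rows) and the summed CPM of 9 marker lists (right), with red positive and blue negative. The strongest cells are Spock2 with Spock3 (0.82) and Sparcl1 with the astrocyte sum (0.85).

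The genes whose variation within groups was most like that of Sparc were in none of the lists above. Among 8840 genes with a mean of at least 10 CPM, the 10 highest in r over the 10 libraries were Sbf1, Snx5, Ppm1a, Avl9, Map2, Peg10, Actb, Tmod2, Tmem205 and Agt, from 0.95 for Sbf1 to 0.88 for Agt. The central 95% of genes spanned -0.74 to 0.69, and these 10 were the extremes of many genes compared over few libraries. The list rested on few libraries, since 1 of the 10 genes was retained without 5XFAD replicate 2 and 4 to 6 without any other library. For the other members, the nearest gene was Ktn1 for Sparcl1 (r = 0.95), Tnr for Spock1 (0.95), Irf9 for Spock2 (0.93), Tbc1d8 for Spock3 (0.95), Bad for Smoc1 (0.94), Arpc4 for Smoc2 (0.95) and Mmp24os1 for Fstl1 (0.96). These values describe likeness over shared libraries and carry no test.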

How the data were processed

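Bulk RNA-seq of cortex from 10 female mice was analysed. The authors made QuantSeq 3′ FWD libraries, trimmed the reads, aligned them to GRCm39 with STAR 2.7.3a and counted them per gene with HTSeq, and deposited these counts without normalization. The version of STAR is that in the submitters' processing notes, which give HTSeq 0.9.1 where the study's methods give a later release. The strand setting of the counting is not given in the sources used here, so genes overlapped by others are uncertain. Reads assigned to no gene (31.3% to 39.9% of those kept) and the counter's other summary lines were dropped before library sizes were taken. Libraries of a group differed by more than sampling noise (chi-square per degree of freedom from 5.87 to 10.6 over 20 pairs).

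Genes needed a total above 10 reads to be tested. The comparison was made with edgeR 4.0.16 in R 4.3.3 (TMM, glmQLFit and glmQLFTest, group as the only term), with Benjamini-Hochberg adjustment over 19268 genes and a threshold of 0.05. The steps were tested on simulated counts. Log2 CPM used a prior count of 2. Correlations used 14400 relabellings within groups and orders 1024 sign flips. For Spearman's rho, all 10 libraries were ranked together before the group means of the ranks were removed, so group differences enter the ranks. The 2 farthest libraries were chosen by the level of the first-named gene alone, with the group means removed. Names and places came from GENCODE vM39, and promoter windows from RefSeq, whose table is on GRCm38.p6. The members and lists were chosen with earlier results of these data known. Named genes were the members, Mylip, list genes past the threshold or else that with the smallest unadjusted p, and the nearest genes by r (10 for Sparc, 3 for each other member, of which the first is given). Col4a1, Col4a2, Stab1, Vcam1, Itgb3 and Nlgn1 were added after their values were seen. Some genes are not reported here. Fcrls was not found among the names and Comp was not tested. Alternatives were DESeq2 1.42.0, its size factors in edgeR, filterByExpr, no filter, a robust fit, no mitochondrial genes, a replicate block, each library left out, CPM from library totals, a prior count of 0.5 and Spearman's rho.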

Additional observations from a re-analysis of the deposited data

Results flagged for a closer look

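Of the members' values, 1 stood apart from its group. Smoc2 in 5XFAD;Neu cKO replicate 1 was at 6.36 CPM, from 34 reads, while the other 4 libraries of that group lay between 15.9 and 17.3 CPM. Its gap to the nearest library was 0.868 of the group's range, above Dixon's 95% critical value of 0.71 for 5 samples. The 8 members in 2 groups made 16 groups of values, and chance alone flags about 1 in 20. Without that library, the log2 fold change of Smoc2 was 0.53 (edgeR adjusted p = 0.499).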

How the results depend on the processing

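The log2 fold change of Sparc kept its sign and stayed past the threshold under every setting run, and 1 member passed in each. Apart from leaving out libraries, it lay between -0.59 and -0.57 (adjusted p from 1.10e-07 to 0.00370). The count of all genes past the threshold, 42, moved to 73 with DESeq2, 103 without the filter and 26 to 72 with 1 library left out. It was 26 without 5XFAD replicate 2, 27 without 5XFAD;Neu cKO replicate 4 or 5, and 72 without 5XFAD;Neu cKO replicate 1. With the replicate number as a block it was 112 (47 higher, 65 lower). The numbers do not pair the libraries, as deviations of same-numbered libraries correlated at -0.0782 to 0.0536 over 8841 genes and 0 of 5 libraries correlated best with their own number. The named genes past the threshold kept their sign in each setting. The causes of these shifts were not tested. The 1 pair of members past the threshold became 0 with CPM from library totals (lowest adjusted p 0.298) and by Spearman's rho, and 0 to 1 with a library left out (0 without any library but 5XFAD replicate 3 or 5XFAD;Neu cKO replicate 2). The 1 pair of a member and a marker sum became 0 with CPM from library totals and 0 to 2 with a library left out (2 without 5XFAD;Neu cKO replicate 2, 1 without replicate 3 of that group, 0 without any other). The order by level differed only without 5XFAD;Neu cKO replicate 4, and the 6 of 7 steps past the threshold were past it in each fit. Among called markers, Csf1r, C1qc, Cx3cr1, Laptm5 and Mal were past it in 9, 8, 6, 3 and 2 of 10 fits with a library left out, and Mal not with filterByExpr (adjusted p 0.0989). Smoc1 and Smoc2 had the fewest reads, 9 to 121 per library, and varied more than counting error gives.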
